A study of Mus musculus with 4 samples.

Results

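The Cyp2c genes encode cytochrome P450 monooxygenases of subfamily 2C. Described here are 10 of them in mouse liver: Cyp2c29, Cyp2c37, Cyp2c38, Cyp2c39, Cyp2c40, Cyp2c50, Cyp2c54, Cyp2c55, Cyp2c69 and Cyp2c70. They were taken by symbol from tables of 33639 genes, and all 10 were found in both the table of estimated counts and the table of transcript abundance scaled for length and depth (TPM). RNA was sequenced from the liver of 1 male mouse of each of 4 genotypes: wild type (WT), Cyp27a1 global knockout (KO), Cyp3a KO, and the combined knockout of both (DKO). The labels give the deleted gene of the last pair of groups as Cyp3a4, which is the human symbol, while the sample titles say Cyp3a. The mice shared chow feeding, group housing with 4 animals per cage and a light and dark cycle of 12 h each, and received no treatment. The labels state neither strain and age, nor how the alleles were made, nor whether the mice were littermates. The series asks how loss of these enzymes alters bile acid synthesis.

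P450 enzymes of the 2C group sit in the membrane of the endoplasmic reticulum, take electrons from the reductase Por, and add oxygen to drugs, steroids and fatty acids. Several mouse members turn arachidonic or linoleic acid into epoxides or hydroxylated products, and hepatic Cyp2c genes are known targets of the xenobiotic receptors PXR (gene Nr1i2) and CAR (gene Nr1i3). Cyp2c70 has a separate role: it makes the muricholic acids, the hydrophilic bile acids that set the bile of mice apart from that of humans.

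Library totals lay between 49745860 and 50378101 estimated counts. Counts are given per 1000000 counts of the library (CPM) after TMM scaling, and 1 count was worth 0.0185 to 0.0214 CPM. With 1 library per genotype there is no replicate check, no test and no p-value, and every difference is between these libraries. The word called is used for a gene that differed at least 2-fold on the log2(CPM + 0.5) scale, had a mean of at least 1 CPM, and whose exact 95% interval of the count ratio left out 1. Folds given as a ratio leave out the added 0.5 and stand with that interval in parentheses, and the intervals cover counting error only. The targeted genes matched the labels in direction: Cyp27a1 stood at 746 CPM in WT and 727 in the Cyp3a KO, and at 57.6 and 65.3 in its own knockout and the DKO, and Cyp3a11, a main hepatic Cyp3a gene, at 8742 and 23706 in the libraries with intact Cyp3a against 0.160 and 4.76. All 10 Cyp2c genes passed the filter of 1 CPM on the mean. Cyp2c69 passed it through the knockout libraries, since it was at 0.794 CPM in WT.

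The 10 genes lie together on chromosome 19, at chr19:39007019-40187333 of GRCm38 (GENCODE release M21), a stretch of 1180 kb. The stretch holds 14 coding genes, and all 14 are Cyp2c genes. From the low to the high coordinate the order is Cyp2c55, Cyp2c29, Cyp2c38, Cyp2c39, Cyp2c40, Cyp2c69, Cyp2c37, Cyp2c54, Cyp2c50 and Cyp2c70, between the neighbours Hells and Pdlim1. Cyp2c55 begins the stretch at chr19:39007019-39042693 on the plus strand, and Cyp2c70 ends it at chr19:40153353-40187333 on the minus strand. Each member has 9 annotated coding exons.

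The members resemble each other closely enough that reads can fit more than 1 of them. Coding identity over the aligned length of the 45 pairs, with gaps counted as mismatches, ran from 61.7% to 96.1%, with a median of 75.6%. Cyp2c37 and Cyp2c50 shared 96.1%, Cyp2c50 with Cyp2c54 at 95.2% and Cyp2c37 with Cyp2c54 at 95.1%. Cyp2c38 and Cyp2c39 shared 94.2%. Cyp2c40 and Cyp2c69 shared 92.4%, because the annotated coding sequence of Cyp2c40 is 87 bases longer; of the 1473 coding bases of Cyp2c69, 97.9% were matched. Cyp2c70 stood farthest away, at 61.7% to 68.6% in its 9 pairs. A window of 60 coding bases from each close group shows the letters by which reads can tell its genes apart. It was chosen as the window within 1 exon that differs most in the group, so differences are denser there than over the whole genes. In the lines that follow, capitals mark the positions that differ within the group; all are GRCm38 reference sequence written along the gene's own strand.
Cyp2c40 (exon 7, chr19:39777967-39778026, minus strand): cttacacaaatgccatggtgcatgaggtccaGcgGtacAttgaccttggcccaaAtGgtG
Cyp2c69 (exon 7, chr19:39851082-39851141, minus strand): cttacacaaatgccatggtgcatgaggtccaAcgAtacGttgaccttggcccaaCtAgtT
Cyp2c37 (exon 6, chr19:40000418-40000477, plus strand): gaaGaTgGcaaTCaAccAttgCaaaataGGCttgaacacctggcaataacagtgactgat
Cyp2c50 (exon 6, chr19:40096717-40096776, plus strand): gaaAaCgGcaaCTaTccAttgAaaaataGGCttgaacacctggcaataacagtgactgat
Cyp2c54 (exon 6, chr19:40047586-40047645, minus strand): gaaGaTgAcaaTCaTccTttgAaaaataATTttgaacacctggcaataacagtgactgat
Cyp2c29 (exon 2, chr19:39290829-39290888, plus strand): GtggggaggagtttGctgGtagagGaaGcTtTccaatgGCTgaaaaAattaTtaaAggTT
Cyp2c38 (exon 2, chr19:39460580-39460639, minus strand): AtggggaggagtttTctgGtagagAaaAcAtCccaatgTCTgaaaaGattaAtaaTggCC
Cyp2c39 (exon 2, chr19:39513273-39513332, plus strand): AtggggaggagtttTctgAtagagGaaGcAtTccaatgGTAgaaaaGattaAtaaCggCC
In these windows 6 positions separate Cyp2c40 from Cyp2c69, 11 vary among Cyp2c37, Cyp2c50 and Cyp2c54, and 15 vary among Cyp2c29, Cyp2c38 and Cyp2c39.

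How much of each gene can be told from all others was measured by cutting the annotated transcripts into words of 31 bases. The share of words found in no other gene was 100% for Cyp2c70, 96.6% for Cyp2c55, 89.5% for Cyp2c29, 83.4% for Cyp2c38, 73.1% for Cyp2c39 and 70.8% for Cyp2c50. It was lower for Cyp2c54 at 57.7%, Cyp2c37 at 52.6%, Cyp2c69 at 35.1% and Cyp2c40 at 27.4%. Values of Cyp2c40 and Cyp2c69, and to a lesser degree of Cyp2c37 and Cyp2c54, can therefore depend on how the authors' counting divided shared reads, and these genes are also given as sums.

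**Figure D1:**
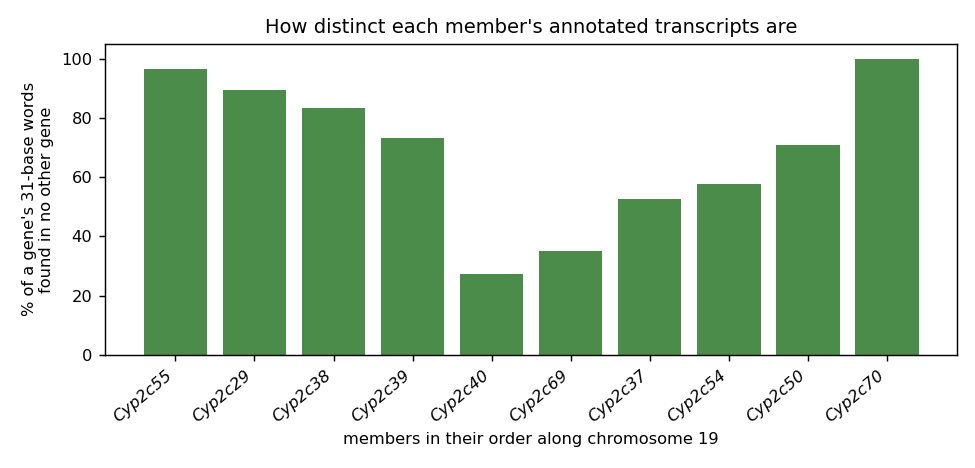
Share of 31-base transcript words (%) found in no other annotated gene, for each Cyp2c gene. Cyp2c70 reaches 100% and Cyp2c55 96.6%, while Cyp2c40 and Cyp2c69 have the lowest shares, 27.4% and 35.1%.

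Cyp2c70, the muricholic acid enzyme, was the only member lower in every knockout library than in WT. It stood at 514 CPM in WT, and at 298, 241 and 309.8 CPM with loss of Cyp27a1, of Cyp3a and of both. WT was the highest library and the 3 knockouts lay close together. The level in the Cyp3a KO was 2.13-fold below WT (2.09 to 2.18), which met the call rule. The Cyp27a1 KO at 1.73-fold below WT (1.69 to 1.76) and the DKO at 1.66-fold below WT (1.63 to 1.69) did not reach 2-fold. On the deposited TPM scale the values were 423, 288, 212 and 326 in the same order, and the difference in the Cyp3a KO then stood at -0.99 on the log2 scale, just short of a call. DKO and Cyp27a1 KO were 1.04-fold apart (1.02 to 1.06). Because other members were higher at the same time, the share of Cyp2c70 in the family's TPM was 19.8% for WT, 6.77% for the Cyp27a1 KO, 3.74% for the Cyp3a KO and 2.83% for the DKO.

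Cyp2c55, a P450 that hydroxylates arachidonic acid and is known to respond to xenobiotic receptors, showed the widest range of the 10. It was at 9.37 CPM in WT, and the Cyp27a1 KO, Cyp3a KO and DKO had 243, 455 and 1016 CPM. Every knockout library was higher than WT, by 25.9-fold (23.5 to 28.6), 48.5-fold (44.2 to 53.5) and 108-fold (98.6 to 119), and all 3 differences met the call rule. Ranked by TPM among all genes, Cyp2c55 moved from place 6671 in WT to places 719, 392 and 160 in these knockouts. The DKO was 2.23-fold above the Cyp3a KO (2.20 to 2.27) and 4.18-fold above the Cyp27a1 KO (4.10 to 4.27).

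Cyp2c29, an arachidonate epoxygenase and a classical CAR target, was the most abundant member per length in all 4 libraries. Its TPM was 807 in WT, against 2395 with Cyp27a1 deleted, 3525 with Cyp3a deleted and 7925 with both deleted. These levels placed it at rank 140, 69, 45 and 17 among all genes. In CPM it stood at 1129, 2965, 4649 and 8631, which is 2.63-fold (2.60 to 2.65), 4.12-fold (4.08 to 4.16) and 7.65-fold (7.58 to 7.71) above WT in the 3 knockouts. All 3 met the call rule. The DKO was 2.91-fold above the Cyp27a1 KO (2.89 to 2.93), also called, and 1.86-fold above the Cyp3a KO (1.85 to 1.87), which was not. Cyp2c29 made up 37.8%, 56.2%, 62.2% and 68.9% of the family's TPM.

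Cyp2c38 and Cyp2c39, the close relatives of Cyp2c29, were present at lower levels and were also above WT in every knockout. Cyp2c38 had 20.0 CPM in WT and 45.4, 50.8 and 89.8 CPM in the Cyp27a1 KO, Cyp3a KO and DKO. It was 2.26-fold (2.10 to 2.45), 2.54-fold (2.35 to 2.74) and 4.48-fold (4.18 to 4.81) above WT, and each was called. Cyp2c39, which is known to act on retinoic acid, had 1.61, 6.51, 3.95 and 16.9 CPM. It was the only member in which the Cyp27a1 KO exceeded the Cyp3a KO while both exceeded WT, at 4.04-fold (3.14 to 5.27) and 2.46-fold (1.88 to 3.25), with the DKO at 10.5-fold (8.32 to 13.5). The intervals of Cyp2c39 are wide because WT held 75 counts, and with a pseudocount of 2 in place of 0.5 its difference in the Cyp3a KO was 0.72 on the log2 scale and was not called.

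**Figure D2:**
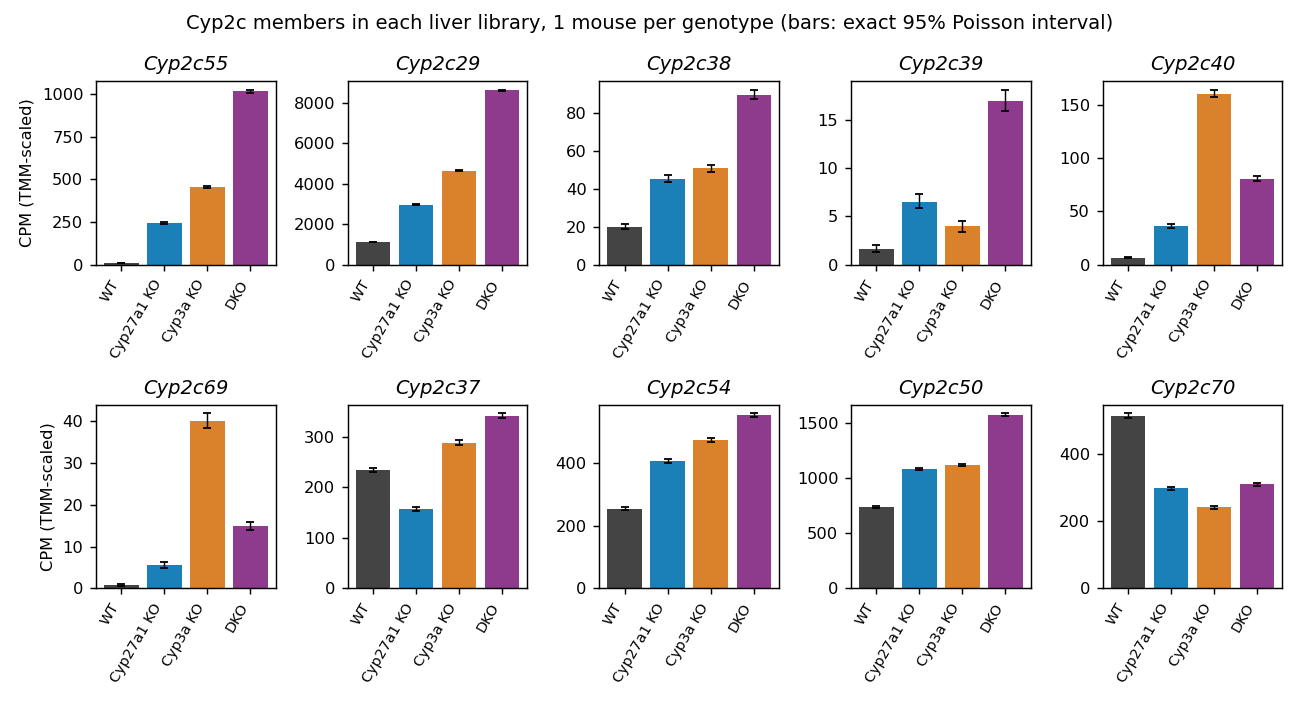
Level of each of the 10 Cyp2c genes in the 4 libraries, in CPM, with 1 value per library and no replicates. 7 genes are highest in the DKO and 8 are lowest in WT; Cyp2c40 and Cyp2c69 peak in the Cyp3a KO and Cyp2c70 is highest in WT.

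Cyp2c40, which hydroxylates arachidonic acid, and its relative Cyp2c69 peaked in the Cyp3a KO. Cyp2c40 had 6.58 CPM in WT, 36.5 when Cyp27a1 was lost, 161 when Cyp3a was lost and 80.9 when both were. Cyp2c69 had 0.794, 5.60, 40.1 and 14.9 CPM in the same order, with 37 counts behind its WT value. Both genes thus had the order WT, Cyp27a1 KO, DKO, Cyp3a KO from low to high. Summed, to set aside the division of reads shared between these genes alone, the pair stood at 7.38, 42.1, 201 and 95.8 CPM. Reads shared with Cyp2c67 and Cyp2c68 are not set aside by summing. Those genes held 5808 and 5342 counts in WT, against 344 for the pair. The sum was 5.70-fold (5.09 to 6.41), 27.2-fold (24.4 to 30.4) and 13.0-fold (11.6 to 14.5) above WT. The DKO was 2.10-fold below the Cyp3a KO for the sum. Taken singly, Cyp2c69 was called lower in the DKO than in the Cyp3a KO, at 2.69-fold (2.48 to 2.92), while Cyp2c40 was 1.99-fold lower (1.91 to 2.06) and stayed just outside the rule. Cyp2c67 and Cyp2c68, which are close in sequence to each other and to this pair, did not share this range: Cyp2c67 had 125, 281, 276 and 193 CPM and Cyp2c68 had 115, 182, 282 and 258. Of the coding bases of Cyp2c69, 97.7% were matched in Cyp2c67 beside the 97.9% in Cyp2c40. Of the coding bases of Cyp2c68, 98.1% were matched in Cyp2c40.

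Cyp2c37, Cyp2c50 and Cyp2c54, which oxidize arachidonic or linoleic acid, varied less than Cyp2c29, Cyp2c38, Cyp2c39, Cyp2c40, Cyp2c55 and Cyp2c69. Cyp2c50 stood at 740.2 CPM in WT, and the Cyp27a1 KO and Cyp3a KO, at 1085 and 1121, lay between WT and the DKO at 1577. Cyp2c54 stood at 254, 405, 473 and 551 CPM. Both were below 2-fold in the single knockouts and were called in the DKO, at 2.13-fold (2.10 to 2.16) for Cyp2c50 and 2.17-fold (2.12 to 2.22) for Cyp2c54. Cyp2c37 was lowest in the Cyp27a1 KO, with 158 CPM, against 235 in WT, 289 with loss of Cyp3a and 342 with loss of both. It was the only member besides Cyp2c70 that was below WT in the Cyp27a1 KO, by 1.49-fold (1.45 to 1.54), and none of its 3 differences from WT was called. Summed over the 3 genes, the ratios to WT were 1.34 (1.33 to 1.36), 1.53 (1.52 to 1.55) and 2.01 (1.99 to 2.03).

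Counted together, 6 of the 10 genes were called higher in the Cyp27a1 KO than in WT and 0 lower, where 2.44% of the 11743 measured genes were called higher and 1.36% lower. The 6 were Cyp2c29, Cyp2c38, Cyp2c39, Cyp2c40, Cyp2c55 and Cyp2c69, and the median log2 fold of the 10 was 1.28, beside 0.00 for all measured genes. In the Cyp3a KO the 6 genes were again higher and Cyp2c70 lower, against 2.56% and 1.86% of all measured genes, with a median of 1.20 beside 0.01. In the DKO 8 of the 10 were called higher and 0 lower, against 6.00% and 4.02%, with a median of 2.54 beside -0.01. The genes left out of the 8 were Cyp2c37 and Cyp2c70. The 3 comparisons share the WT library, so a WT level that is unusual for a gene enters all of them.

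Plotted in chromosome order, the folds against WT fell into blocks, a pattern seen after the values were known. The first 6 members, from Cyp2c55 to Cyp2c69, were the 6 called in each single knockout, and the last 4, from Cyp2c37 to Cyp2c70, had smaller folds. In the Cyp27a1 KO the lowest log2 fold of the first 6 was 1.16 (Cyp2c38) and the highest of the last 4 was 0.67 (Cyp2c54). In the Cyp3a KO these bounds were 1.08 (Cyp2c39) and 0.90 (Cyp2c54), and in the DKO 2.14 (Cyp2c38) and 1.12 (Cyp2c54). With a pseudocount of 2 the blocks overlapped in the Cyp3a KO, at 0.72 and 0.89. The division did not hold for every Cyp2c gene of the stretch. Cyp2c67 and Cyp2c68, which are not among the 10, had folds between those of the blocks or within their ranges. Cyp2c67 had log2 folds of 1.17, 1.14 and 0.63 in the Cyp27a1 KO, Cyp3a KO and DKO, and Cyp2c68 had 0.67, 1.30 and 1.17. In the DKO both were below the 2.14 that was the lowest of the first 6. This speaks of the size of the folds, and the place of these genes along the chromosome is not given here.

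**Figure D3:**
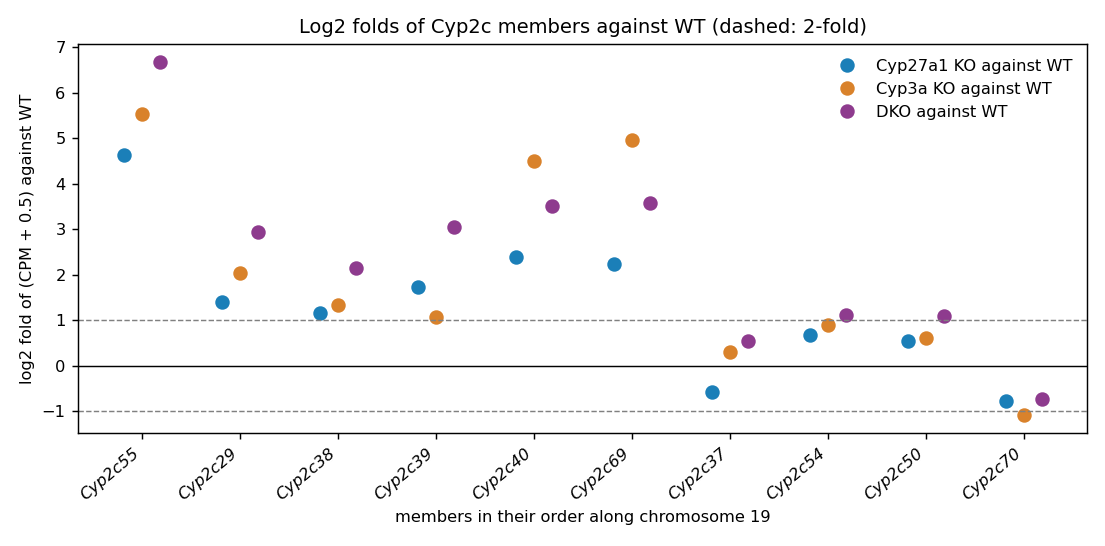
Log2 fold of CPM + 0.5 against WT (y axis) for the 10 Cyp2c genes in their order along the chromosome (x axis, equally spaced), with 1 point for each knockout library. The first 6 genes lie above the last 4 in each knockout, and only Cyp2c37 and Cyp2c70 have points below 0.

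Over the family, the summed level was higher in each knockout and highest in the DKO. The 10 genes together held 135709 counts in WT, and 261353, 374766 and 684109 with Cyp27a1, Cyp3a or both deleted. As a share of all counts this was 0.273%, 0.523%, 0.744% and 1.36%. In CPM the sums were 2911, 5248, 7485 and 12629, and the ratios to WT were 1.80 (1.79 to 1.81), 2.57 (2.56 to 2.59) and 4.34 (4.31 to 4.36). Cyp2c29 dominated the sum: without it the ratios were 1.28, 1.59 and 2.24. Without Cyp2c70 they were 2.07, 3.02 and 5.14. The total TPM of the family was 2133, 4262, 5667 and 11509, and Cyp2c50 was the next most abundant member after Cyp2c29 in every library, at 534, 886, 862 and 1465 TPM. From a bulk library, more Cyp2c RNA per hepatocyte and more cells that express it cannot be told apart.

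**Figure D4:**
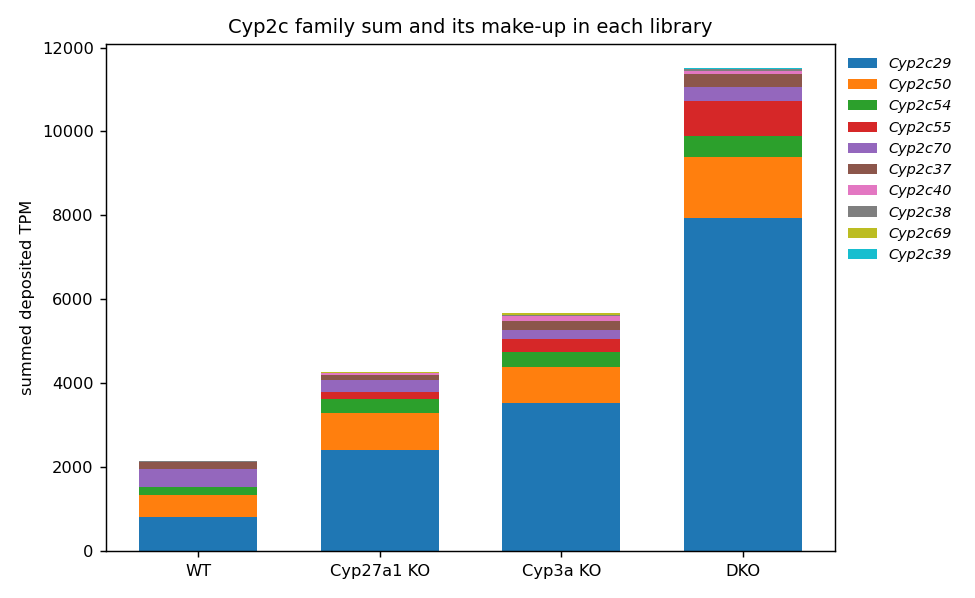
Summed TPM of the 10 Cyp2c genes in each library (bars from 0), divided by gene. The sum goes from 2133 in WT to 11509 in the DKO, and the Cyp2c29 share goes from 37.8% to 68.9% while that of Cyp2c70 goes from 19.8% to 2.83%.

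Set against the single knockouts in place of WT, the DKO had fewer called members than the 8 above. Relative to the Cyp27a1 KO, 6 genes were called higher and 0 lower, where 2.84% and 2.59% of measured genes were called, and the median log2 fold was 1.13. The 6 were Cyp2c29, Cyp2c37, Cyp2c39, Cyp2c40, Cyp2c55 and Cyp2c69. Relative to the Cyp3a KO, 2 genes were called higher (Cyp2c39 and Cyp2c55) and 1 lower (Cyp2c69), where 4.02% and 2.70% of measured genes were called, and the median was 0.43. Cyp2c39 was 4.29-fold above the Cyp3a KO (3.67 to 5.02). The family sum in the DKO was 2.41 times that of the Cyp27a1 KO (2.40 to 2.42) and 1.69 times that of the Cyp3a KO (1.68 to 1.69).

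The level in the DKO was also compared with the product of the effects in the single knockouts, that is, Cyp27a1 KO times Cyp3a KO divided by WT. For the family sum the log2 of the observed level over this product was -0.096 (-0.107 to -0.085), and on deposited TPM it was 0.024, of opposite sign. Beneath this near balance the members differed widely. Departures of single members were taken on CPM + 0.5, as for log2 folds, and that of the sum without it. The products and observed levels are printed without the added 0.5, so for low genes they do not give the printed departure exactly. Cyp2c55 had a product of 11788 CPM against 1016 observed, a departure of -3.47 on the log2 scale. Cyp2c40 had a product of 890.0 CPM against 80.9 observed (-3.37), and Cyp2c69 one of 283 against 14.9 (-3.63). Over all measured genes the departure had a median of -0.02 and a range from -0.84 to 0.84 between the 5th and the 95th percentile, and 3.49% of genes were below -1. Cyp2c70 lay on the other side, with a product of 139.7 CPM against 309.8 observed and a departure of 1.15, where 3.40% of genes were above 1. Cyp2c37 had 0.82, Cyp2c39 0.24 with an interval that spans 0, Cyp2c50 -0.06, Cyp2c38 -0.35, Cyp2c54 -0.45 and Cyp2c29 -0.50. All 4 libraries enter each of these values, so no spread is left to test them against.

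**Figure D5:**
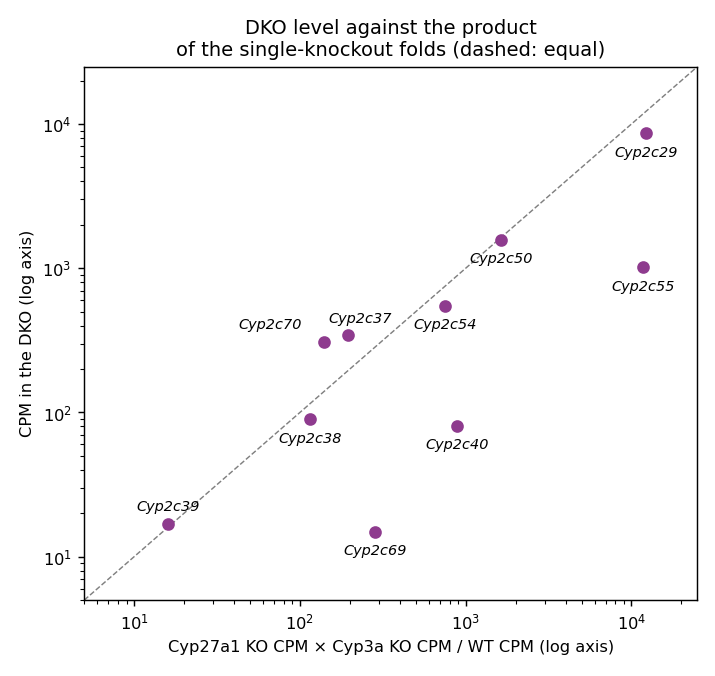
CPM in the DKO (y axis, log scale) against the product of the single-knockout levels divided by WT (x axis, log scale), 1 point per Cyp2c gene. Cyp2c55, Cyp2c40 and Cyp2c69 lie far below the dashed line of equality, with departures of -3.47, -3.37 and -3.63 on the log2 scale, and Cyp2c70 and Cyp2c37 above it.

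Since members differed in groups, their promoters were read from RefSeq (GRCm38.p6), which matched 9 of the 10 members in 10 windows of 250 bases before to 50 after the annotated start. Cyp2c54 had no entry. Shown are the members at the extremes: Cyp2c55 with the widest range, Cyp2c29 with the highest level, the pair that peaked in the Cyp3a KO, and Cyp2c70. Only bases outside annotated exons are printed, along the gene's own strand, and capitals mark CAAAGTCCA, AGTTCA, or the receptor core AGGTCA.
Cyp2c55 (chr19:39006769-39007018, plus strand): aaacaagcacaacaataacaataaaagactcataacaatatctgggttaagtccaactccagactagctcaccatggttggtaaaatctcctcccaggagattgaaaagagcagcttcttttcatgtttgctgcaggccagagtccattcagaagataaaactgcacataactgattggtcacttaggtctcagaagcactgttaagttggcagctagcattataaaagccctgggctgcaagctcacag
Cyp2c29 (chr19:39286835-39287073, plus strand): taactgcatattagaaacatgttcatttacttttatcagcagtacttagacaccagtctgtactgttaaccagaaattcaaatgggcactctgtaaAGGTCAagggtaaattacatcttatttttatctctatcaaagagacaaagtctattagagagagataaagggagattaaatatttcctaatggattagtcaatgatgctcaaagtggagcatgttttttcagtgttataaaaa
Cyp2c40 (chr19:39812815-39813064, minus strand): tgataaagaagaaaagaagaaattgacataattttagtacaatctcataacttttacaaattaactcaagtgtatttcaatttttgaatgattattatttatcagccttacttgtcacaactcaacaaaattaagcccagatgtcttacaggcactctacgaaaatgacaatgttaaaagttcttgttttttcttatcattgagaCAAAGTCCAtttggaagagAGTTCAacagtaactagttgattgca
Cyp2c69 (chr19:39886800-39887019, minus strand): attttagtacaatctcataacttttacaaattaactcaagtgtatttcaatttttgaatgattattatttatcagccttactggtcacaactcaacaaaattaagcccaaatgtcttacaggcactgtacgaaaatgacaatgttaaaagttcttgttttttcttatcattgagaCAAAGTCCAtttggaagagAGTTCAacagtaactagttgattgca
Cyp2c70 (chr19:40187334-40187536, minus strand): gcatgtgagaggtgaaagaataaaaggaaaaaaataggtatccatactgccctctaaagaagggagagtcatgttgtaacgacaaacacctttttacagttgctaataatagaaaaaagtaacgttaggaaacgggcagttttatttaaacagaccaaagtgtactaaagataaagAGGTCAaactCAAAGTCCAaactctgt
Over the 220 bases that both windows hold, Cyp2c40 and Cyp2c69 differed at 3 positions.

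Motifs were searched on both strands, with overlaps allowed. CAAAGTCCA, a form of the motif bound by the hepatocyte factor HNF4A, was in the windows of Cyp2c40, Cyp2c69 and Cyp2c70, which is 3 of 10 windows, beside 0.475% of 32851 windows of all genes; Cyp2c40 and Cyp2c69 are near-copies and do not count as separate cases. AGGTCA, a core recognised by many nuclear receptors, was in 3 of the 10 windows (Cyp2c29, Cyp2c70 and 1 of the pair for Cyp2c39) against 16.3% of all. This Cyp2c39 window starts at chr19:39347096, between Cyp2c29 and Cyp2c38. It lies outside the GENCODE gene Cyp2c39 at chr19:39510862-39568529. The Cyp2c29 window starts at chr19:39286835, inside the GENCODE gene Cyp2c29 at chr19:39269405-39330713 and not before its start. AGTTCA, a variant of that core used by PXR and CAR, was in 4 (Cyp2c40, Cyp2c50, Cyp2c69 and 1 for Cyp2c39) against 14.0%. Direct repeats of these cores with spacers of 3 or 4 bases were in 0 of the 10, against 0.0122% and 0.0274% of all. TTC and GAA with 3 bases between, the STAT type of motif, was in 0 of the 10 against 8.30%. A match describes letters in the window and no more.

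Lists of genes around the Cyp2c enzymes were read against all measured genes, of which 2.44% were called higher and 1.36% lower in the Cyp27a1 KO; the shares were 2.56% and 1.86% for the Cyp3a KO and 6.00% and 4.02% for the DKO. Of 15 measured regulators of Cyp2c genes, 1 was higher and 1 lower in the Cyp27a1 KO, 2 were higher in the Cyp3a KO, and the DKO had 0 calls. Bcl6, a transcriptional repressor, had log2 folds against WT of -0.27, 3.10 and -0.86 in the order Cyp27a1 KO, Cyp3a KO and DKO. Onecut1, a hepatocyte transcription factor, had 1.78, -0.96 and -0.85. Nr0b2, encoding the corepressor SHP, had -1.01, 1.48 and 0.56. Nr1i2, encoding PXR, had -0.13, 0.00 and 0.15, and Nr1i3, encoding CAR, had -0.24, 0.08 and 0.07; these and Nr0b2 were named after their values were seen. Of 10 genes for redox partners and heme, 0 were called in the Cyp27a1 KO and the DKO and 1 was lower in the Cyp3a KO. Por, the electron donor of the Cyp2c enzymes, had log2 folds of 0.04, 0.14 and 0.51. It was named after its values were seen and is not among the 3 genes of its list that differed most between DKO and WT.

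Of 8 other P450 genes that are targets of PXR and CAR, 5 were higher in the Cyp27a1 KO, 2 higher and 3 lower in the Cyp3a KO, and 5 higher and 3 lower in the DKO, beside the same shares of all genes. That list holds Cyp3a genes, which were the target of the deletion and make up the lower calls. Cyp2b9, Cyp2b13 and Cyp2a4, which are among the higher calls in the DKO, also stand in the list of female-biased genes below. Cyp2b10, a standard marker of CAR activity chosen here after its values were seen, was 2.24-fold, 3.56-fold and 10.02-fold above WT. Of 10 genes that handle arachidonate and its epoxides, 1 was higher and 3 lower in the Cyp27a1 KO, 0 higher and 3 lower in the Cyp3a KO, and 1 higher and 4 lower in the DKO. The shares over all measured genes were again 2.44% and 1.36%, 2.56% and 1.86%, and 6.00% and 4.02%. Of 17 measured genes of bile acid synthesis, the pathway that supplies the substrate of Cyp2c70, 2 were higher and 3 lower in the Cyp27a1 KO, 1 higher and 2 lower in the Cyp3a KO, and 2 higher and 2 lower in the DKO. This pathway list holds Cyp27a1, itself a target of deletion, which is among the lower calls in the Cyp27a1 KO and the DKO. Cyp7a1, the rate-limiting enzyme of that pathway, was 16.2-fold, 1.85-fold and 7.75-fold above WT, so its order of libraries was not the inverse of that of Cyp2c70.

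Several marker lists moved with the same libraries. Of 12 male-biased liver genes, 0 were called higher and 4 lower in the Cyp27a1 KO, 1 higher and 2 lower in the Cyp3a KO, and 0 higher and 10 lower in the DKO. Of 8 measured female-biased genes, 3 were higher and 2 lower in the Cyp27a1 KO, 0 higher and 4 lower in the Cyp3a KO, and 6 higher and 2 lower in the DKO. The 6 include Cyp2b9, Cyp2b13 and Cyp2a4, which were counted above among the targets of PXR and CAR. The lower calls in the Cyp3a KO include Cyp3a41a and Cyp3a44, and those in the DKO include Cyp3a44, genes of the deleted family. Over all measured genes the shares were 2.44% and 1.36%, 2.56% and 1.86%, and 6.00% and 4.02%. All mice were labelled male. Of 12 pericentral genes, which mark the zone where Cyp2c enzymes are most abundant, 3, 2 and 2 were called higher in the Cyp27a1 KO, Cyp3a KO and DKO, and 0, 0 and 1 lower. Of 12 periportal genes, 0 were higher in any knockout, and 1, 0 and 2 were lower. Summed markers of hepatocytes stood at 95220, 54121, 58203 and 79156 CPM in the order WT, Cyp27a1 KO, Cyp3a KO and DKO, those of Kupffer cells at 169.5, 178, 113 and 291, and those of erythroid cells at 608, 448, 286 and 279.9. Most of the hepatocyte sum was Alb, at 72499, 37953, 40344 and 65721 CPM. Of the 5 hepatocyte markers, 0, 0 and 2 were called lower in the 3 knockouts and 0 higher. Their median log2 folds were -0.60, -0.43 and -0.76. The erythroid gene Alas2 had 87.7, 146, 103 and 29.2 CPM, above WT in both single knockouts. Alb and Alas2 were named after their values were seen. Endothelial markers summed to 128 to 166 CPM, stellate markers to 52.0 to 78.9 and cholangiocyte markers to 31.3 to 43.1, and no marker was at 0. The part of these lists in the Cyp2c values was not tested.

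Genes outside the subfamily whose 4 values lay nearest to those of a member were named by distance between log2 levels centred on each gene's own mean, among 8626 genes with a mean of at least 5 CPM. Nearest to Cyp2c70 were Esrra (distance 0.143), Tango2 (0.158), Serinc3 (0.176) and Ppp4r4 (0.194). Esrra, a nuclear receptor of energy metabolism, had 47.96, 31.4, 23.3 and 31.8 CPM in the order WT, Cyp27a1 KO, Cyp3a KO and DKO. Nearest to Cyp2c55 were the sulfotransferase Sult2a7 (0.690) and the glutathione transferase Gstm3 (0.831), followed at a much greater distance by Gsta1 (2.13) and Nebl (2.13). Gstm3 had 51.3, 1512, 1504 and 7182 CPM. Nearest to the family sum were Exosc8 (0.132), Erlin1 (0.189), Mmab (0.204) and Prlr (0.246), the last of which encodes the prolactin receptor. With 4 libraries, such nearness is a description of 4 values and says nothing of shared control.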

How the data were processed

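Livers of 4 male mice, 1 of each genotype, were kept in RNAlater; RNA was extracted by RNeasy and sequenced from TruSeq (RNA Library Prep Kit v2) libraries, per the labels' protocols. Groups came from the genotype and title labels. Trimmomatic 0.33, HISAT2 2.0.5 and kallisto 0.43.1 and the mm10 build are named in the submitters' processing notes with no role; which of them gave the values is not given in the sources used here, and neither is the handling of reads shared between genes. Estimated counts were deposited by symbol, of which 57.7% were whole; they were rounded to whole numbers. The authors also deposited TPM, used here for levels between genes and as an alternative. The ratio of count to TPM, relative to the other members, was constant across libraries to within 1.01-fold, except for Cyp2c40 (1.14-fold) and Cyp2c70 (1.04-fold).

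Counts were scaled with TMM (edgeR 4.0.16, R 4.3.3; factors 0.937, 0.996, 0.994 and 1.08 in the order WT, Cyp27a1 KO, Cyp3a KO, DKO). Log2 folds are of CPM plus 0.5, which understates the folds of low genes. Intervals of count ratios are exact conditional binomial (Clopper-Pearson), and those of departures use Poisson error. The calling script was tested on simulated data with known answers. There were 5 comparisons: the 3 knockouts with WT, and the DKO with either single knockout. Alternatives were library-total scaling, DESeq2 1.42.0 size factors, deposited TPM, no filter, a mean of at least 5 CPM, pseudocounts of 0.1 and 2, a 4-fold rule, no counting interval, and other sets of genes in the sum; TPM recentred on the median gene and the sum without Cyp2c55 were added after seeing the data.

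The members and the 18 gene lists set beside them were chosen with earlier results of these data known. All members are described. Other named genes are up to 3 per list with the largest difference between DKO and WT, or the 4 nearest in pattern. Exceptions are genes that the text says were named after their values were seen. Outside the rule, Cyp3a41a and Cyp3a44 were named as genes of the deleted family, and Cyp27a1 and Cyp3a11 to check the labels. Cyp2b9, Cyp2b13 and Cyp2a4 were named as genes shared by lists. Some genes stand in more than 1 list, so the lists are not separate observations. Not every gene the rule allows is named, and the list of genes flanking the locus is not reported here. Coding and word comparisons used GENCODE M21 transcripts; they stand in place of a planned comparison of proteins, which were not analysed here. Python 3.11.15, numpy 2.4.6, scipy 1.17.1, pandas 2.3.3 and Biopython 1.88 were used.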

Additional observations from a re-analysis of the deposited data

Results flagged for a closer look

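For Cyp2c37, Cyp2c40, Cyp2c69 and Cyp2c70, loss of a gene went with differences of opposite sign on the 2 backgrounds measured. These were against WT and against the other single knockout. How many of all measured genes do the same was not counted, so the pattern is not shown to be particular to these members. Each difference is between 1 library and 1 other, and the contrast between backgrounds was not tested. Loss of Cyp27a1 went with a log2 fold of 2.38 for Cyp2c40 against WT and of -0.99 on the Cyp3a KO background. For Cyp2c69 the values were 2.24 and -1.40. For Cyp2c37 they were -0.57 and 0.24. Cyp2c70 had -0.79 against WT and 0.36 on the Cyp3a KO background. Loss of the Cyp3a genes also went with opposite signs for Cyp2c70, at -1.09 against WT and 0.055 on the Cyp27a1 KO background, the latter a 1.04-fold difference. In the Cyp2c40 and Cyp2c69 pair both signs are present in the sum of the genes too, at 2.51 and -1.07. This sum can still depend on reads shared with Cyp2c67 and Cyp2c68.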

How the results depend on the processing

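No paired analysis was possible because each genotype has 1 library, and for the same reason none was left out in turn. Of 300 member folds under the 6 settings that can alter a fold, 0 changed sign, 199 moved by less than the counting interval of the fold and 101 by more. The other settings bear on calls alone. Of 100 counts of calls, 86 equalled the count reported and 14 did not.

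In the order Cyp27a1 KO, Cyp3a KO and DKO against WT, DKO against Cyp3a KO and DKO against Cyp27a1 KO, the family ratio was 1.92, 2.73, 4.99, 1.83 and 2.60 with library totals and 1.998, 2.66, 5.39, 2.03 and 2.70 with deposited TPM. It was 1.78, 2.50, 4.31, 1.72 and 2.42 with recentred TPM. Size factors of DESeq2 gave 4.39, 1.70 and 2.42 for the last 3. Leaving Cyp2c29 out moved the 3 ratios to WT more than any scaling did: without it the ratios were 1.28, 1.59, 2.24, 1.41 and 1.75, and without Cyp2c55 1.73, 2.42, 4.00, 1.65 and 2.32. Over every Cyp2c symbol the last 4 were 2.52, 4.02, 1.59 and 2.23. The departure of the sum was -0.068 with library totals, -0.047 with recentred TPM and 0.024 with deposited TPM. Deposited TPM moved the median of all genes by 0.18, 0.08, 0.35, 0.26 and 0.17 on the log2 scale, and library totals by 0.08, 0.08, 0.19, 0.11 and 0.11.

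Under the 4-fold rule 3 members were higher in the Cyp27a1 KO, 4 higher and 0 lower in the Cyp3a KO, 6 higher in the DKO, 0 higher and 0 lower for the DKO against the Cyp3a KO, and 1 higher for the DKO against the Cyp27a1 KO. With deposited TPM 0 were lower in the Cyp3a KO against WT and 4 higher in the DKO against the Cyp3a KO (Cyp2c29 and Cyp2c38 in addition), where recentred TPM gave 2 lower (Cyp2c40 in addition to Cyp2c69). A pseudocount of 2 left 5 higher in the Cyp3a KO. Library totals gave 3 higher for the DKO against the Cyp3a KO and 7 against the Cyp27a1 KO, and deposited TPM also gave 7 for the latter. Depth limits Cyp2c39 and Cyp2c69 most, with 75 and 37 counts in WT.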

Other observations

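Genes of the subfamily outside the 10 were also read. Cyp2c44, which release M21 of GENCODE names Cyp2c23, had 180.0, 289.6, 351 and 308 CPM in the order WT, Cyp27a1 KO, Cyp3a KO and DKO, and none of its differences from WT was called. Cyp2c65 had 0, 2, 7 and 13 counts and Cyp2c66 had 0, 3, 0 and 2, too few for a comparison; a count of 0 allows up to 3 counts, or 0.0643 CPM in WT. The pseudogene Cyp2c53-ps had 10, 49, 159 and 100 counts, which is the order of libraries seen for Cyp2c40 and Cyp2c69. Whether its counts are reads that other Cyp2c genes share was not tested.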
